A study of Homo sapiens with 6 samples.

Results

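The genes examined were the aminoacyl-tRNA synthetases of human dermal fibroblasts and the scaffold genes of their complex, picked from the table by gene symbol. The table lists 41 such genes of 21151 in all: 21 cytosolic synthetase genes, 17 mitochondrial ones and 3 scaffold genes. Each of the 41 was abundant enough to be tested. The cells were the CCD-1064Sk line (CRL-2076), a fibroblast line from skin grown in medium with fetal bovine serum, and the labels give the genotypes as WT and ZNF469 knockdown. Control cells carried a control short-hairpin RNA (shControl, 3 libraries). Knockdown cells carried hairpins that target ZNF469, which encodes a zinc-finger protein (shZNF469, 3 libraries), with no other allele or agent named in the labels. The study asked how ZNF469 affects production of extracellular matrix. The design text describes the 3 libraries of a group as technical replicates of 1 line, so that p-values measure only the spread between these libraries. The hairpins' sequences and number are not stated in the labels.

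Aminoacyl-tRNA synthetases attach each amino acid to its transfer RNA and so supply the ribosome with its substrates. Separate nuclear genes, with symbols ending in 2, encode the enzymes that do this inside mitochondria, while GARS1 and KARS1 encode both forms and were counted as cytosolic. Several cytosolic enzymes assemble into a multi-synthetase complex held together by the scaffold proteins AIMP1, AIMP2 and EEF1E1 (also known as AIMP3). When cells are short of amino acids, uncharged transfer RNA activates the kinase GCN2, and the transcription factor ATF4 then raises many amino acid genes, including a subset of the cytosolic synthetases, through an element that C/EBP and ATF proteins bind.

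Total counts were 35417366 to 48298264 per library. ZNF469 was at 39.7, 46.2 and 39.9 CPM (counts scaled to library size, with TMM factors) in the controls and at 21.4, 18.3 and 18.5 CPM with shZNF469, which left 46.2% of the control level. The 12 fibroblast markers were all tested, with a summed abundance of 34638 to 37045 TPM (the authors' length-scaled transcript abundance) in the controls and 28112 to 29875 TPM in the knockdown. At an adjusted p under 0.05 (edgeR), COL1A1, COL1A2 and COL3A1 were lower (log2 fold changes of -1.75, -0.87 and -0.81) and 2 markers higher. Of all genes tested, 5.34% were lower and 4.56% higher. The median of the 12 markers was 0.13, and 4 of the 12 estimates were below 0. Of 7 keratinocyte, 7 melanocyte, 6 endothelial and 6 leukocyte markers, 1 (KRT10), 2 (PMEL and MITF), 2 (TEK and VWF) and 2 (CD68 and CD14) were tested. The sums over the tested markers of each type were 24.4 to 28.3, 38.0 to 42.4, 0.904 to 1.66 and 172 to 195 TPM in the controls. In the knockdown they were 18.5 to 18.8, 51.3 to 62.6, 0 to 1.35 and 204 to 245 TPM. KRT5, KRT14, MLANA, TYR, PECAM1, CDH5, PTPRC and CD3E are not listed by symbol among the deposited genes and could not be tested. All 20 genes of a proliferation list were lower in shZNF469 (median log2 fold change -1.03), beside 5.34% of all genes tested. The part of these marker and proliferation genes in the results on synthetases was not tested.

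The element through which ATF4 acts has the core TGATGNAA. It was searched for on both strands in the window from 250 bases before to 50 bases after each RefSeq start (GRCh38.p14), because the promoter is where members that move together could share sequence. Of the 41 genes, 33 have an entry. LARS1, TARS3, VARS1, YARS1, AARS2 and VARS2 are among those with none. The core was present in 7 of 16 cytosolic genes, in 1 of 14 mitochondrial genes and in 0 of 3 scaffold genes, against 4.46% of all 27305 genes with an entry and 3.62% of the 35116 windows. The 8 matches are shown with 11 bases on each side, read along the gene's strand, with the core in capitals.
AARS1: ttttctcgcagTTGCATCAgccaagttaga
CARS1: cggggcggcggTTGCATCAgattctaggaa
GARS1: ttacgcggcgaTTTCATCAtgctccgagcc
IARS1: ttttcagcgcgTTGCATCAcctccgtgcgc
MARS1: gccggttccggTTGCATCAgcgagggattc
NARS1: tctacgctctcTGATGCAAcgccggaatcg
TARS1: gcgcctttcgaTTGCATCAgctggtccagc
YARS2: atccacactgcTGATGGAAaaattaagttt

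In 6 of these genes the core has the same 8 bases, TGATGCAA on one strand or the other, a form that 0.866% of all windows hold. For this form the share over genes was not computed. Counted from the first transcribed base as 0, the core begins at -187 in AARS1, -13 in IARS1, -4 in MARS1 and -2 in CARS1. It begins at 14 in NARS1 and -197 in YARS2. In GARS1 (-33) and TARS1 (2) it was counted from an annotated start that lies downstream of the gene's outermost one. AARS1 is thus the 1 cytosolic gene of the 7 whose core lies far upstream of the start. The printed stretches are chr16:70289675-70289704 (AARS1, minus strand), chr11:3057407-3057436 (CARS1, minus), chr7:30594834-30594863 (GARS1, plus), chr9:92293692-92293721 (IARS1, minus), chr12:57488053-57488082 (MARS1, plus), chr18:57621804-57621833 (NARS1, minus), chr5:33440956-33440985 (TARS1, plus) and chr12:32756076-32756105 (YARS2, minus). A match of letters is a description and not a site of binding.

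Cytosolic synthetase genes were lower in shZNF469 where they changed, and the mitochondrial genes showed no call in either direction. Of the 21 cytosolic genes, 10 were lower and 0 higher at an adjusted p under 0.05 (edgeR quasi-likelihood test, adjusted over 16353 genes), where 5.34% of all genes tested were lower and 4.56% higher, 9.9% in all. Their median log2 fold change, shZNF469 minus shControl throughout, was -0.27, beside 0.00 over all genes, and 20 of the 21 estimates were below 0. Of the 17 mitochondrial genes, 0 were lower and 0 higher, with a median of 0.00, and DESeq2 called 2 higher. An unadjusted p under 0.05 was seen in 2 of the 17, beside 4001 of the 16353 genes tested. The difference between the 2 sets was not tested. The count of lower cytosolic genes fell to 5, 6 and 6 without shControl replicate 1, 2 and 3 and to 6 without shZNF469 replicate 1. DESeq2 gave 14, and it called more genes in all, 1642 lower and 1638 higher, where edgeR called 874 and 745.

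**Figure D1:**
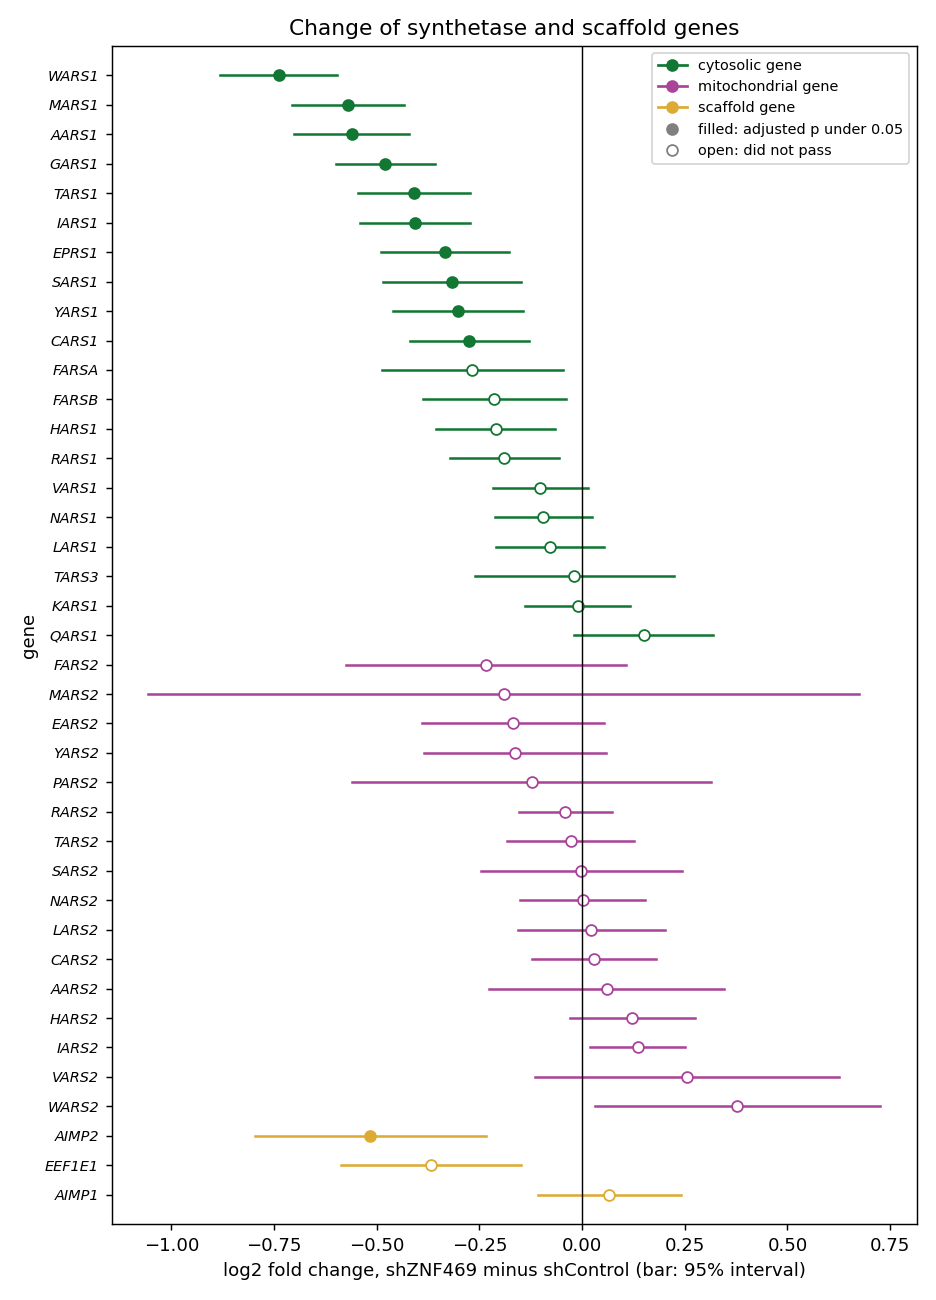
Log2 fold change of 39 of the 41 genes (points, shZNF469 minus shControl) with its 95% interval from the edgeR fit (bars). Filled points passed at an adjusted p under 0.05: 10 cytosolic genes and AIMP2, all below 0, and 0 mitochondrial genes.

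Seen as a sum, the 21 cytosolic genes took 2220, 2200 and 2253 CPM in the 3 shControl libraries, against 1862, 1821 and 1862 CPM with shZNF469. The knockdown mean was 83.1% of the control mean (2224 ± 26.7 and 1848 ± 23.9 CPM, SD, n = 3), and the groups lie far apart beside their spread. The 17 mitochondrial genes summed to 532, 522 and 533 CPM with shControl and 549, 540 and 542 CPM with shZNF469, which is 103% of the control mean. On the authors' TPM, which accounts for gene length, the 2 sums were at 83.0% and 100.1% of the control. In bulk RNA a lower level per cell and a smaller share of cells with that level cannot be told apart.

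**Figure D2:**
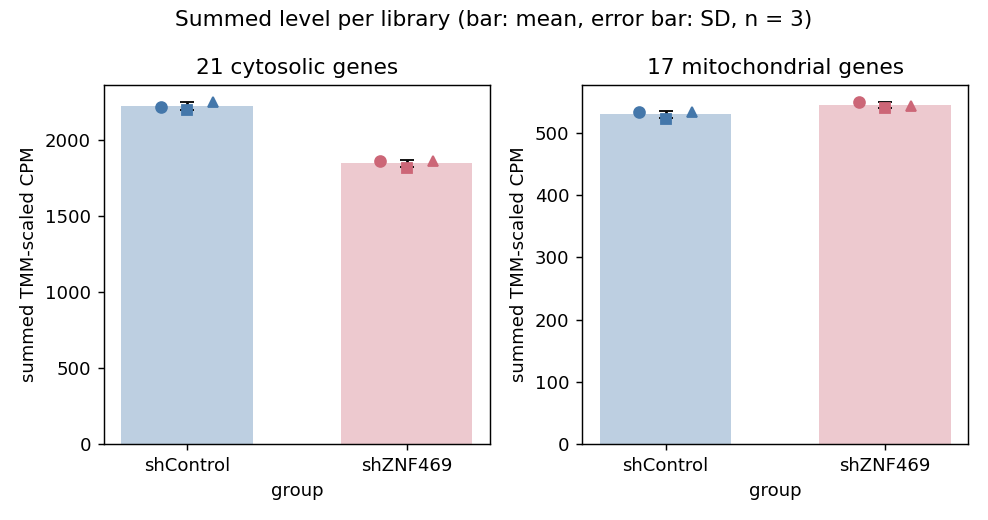
Summed TMM-scaled CPM of the 21 cytosolic genes (left) and the 17 mitochondrial genes (right) by group, with each library as a point, the mean as a bar and the SD as an error bar (n = 3). The cytosolic sum was between 1821 and 1862 CPM with shZNF469 and between 2200 and 2253 CPM in the controls.

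The largest fall was that of WARS1, the tryptophanyl-tRNA synthetase (chromosome 14, 100333790 to 100376327 on GRCh38.p14, protein coding). It was at 130, 141 and 139 CPM with shControl and 79.7, 79.3 and 86.6 CPM with shZNF469. The control libraries were all higher than any knockdown library, and the fall was 1.67-fold (a log2 fold change of -0.74, SE 0.06, adjusted p = 0.000873). Exons of WARS1 share 6.06% of their bases with AL157871.4 and 4.51% with WDR25 on the opposite strand. WARS1 stands apart among the synthetases as a gene that interferon-gamma induces. The interferon list as a whole had 1 of 17 tested genes higher (GBP2, which encodes a guanylate-binding GTPase; log2 fold change 0.33) and 1 lower (IFIT1, an RNA-binding antiviral gene; -0.55). Of all genes tested, 4.56% were higher and 5.34% lower. The call of GBP2 was lost when shControl replicate 1, 2 or 3 or shZNF469 replicate 1 or 3 was left out. IFIT1 stayed at -0.60 to -0.51 with any 1 library left out, and the list kept 1 lower gene each time. DESeq2 called 2 genes of the list higher and 2 lower, with 1638 higher and 1642 lower in all.

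MARS1, the methionyl enzyme of the complex (chromosome 12, 57488068 to 57516652), was at 97.2, 99.9 and 102 CPM with shControl and 66.7, 64.0 and 71.0 CPM with shZNF469. That is a 1.48-fold fall (a log2 fold change of -0.57, SE 0.06, adjusted p = 0.00191). Its exons share 7.38% of their bases with ARHGAP9 and 5.05% with DDIT3 on the opposite strand, and no strand setting of the counting is stated. AARS1, the alanyl enzyme (chromosome 16, 70252298 to 70289506), fell just as far, from 153, 158 and 164 CPM to 110, 101 and 111 CPM (a log2 fold change of -0.56, SE 0.06, adjusted p = 0.00222). GARS1, the glycyl enzyme of cytosol and mitochondria (chromosome 7, 30594735 to 30634033), was at 155, 146 and 157 CPM with shControl and 111, 109 and 110 CPM with shZNF469. The 3 knockdown libraries nearly coincided, and the fall was 1.39-fold (a log2 fold change of -0.48, SE 0.05, adjusted p = 0.00226). WARS1, MARS1, AARS1 and GARS1 were called lower in each of the 13 alternative settings.

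TARS1, the threonyl enzyme (chromosome 5, 33440696 to 33468091), was at 115, 110 and 115 CPM with shControl and 80.3, 86.7 and 88.8 CPM with shZNF469 (1.33-fold lower, or -0.41 in log2 with SE 0.06; adjusted p = 0.0066). IARS1, the isoleucyl enzyme of the complex (chromosome 9, 92210207 to 92293697), had 165, 160 and 149 CPM against 120, 121 and 116 CPM, a fall of the same size (a log2 fold change of -0.41, SE 0.06, adjusted p = 0.00638). In both genes every control library was above every knockdown library. The call was held in 12 of 13 alternatives for each, being lost for TARS1 without shControl replicate 1 and for IARS1 on log2 TPM with a pseudocount of 0.1.

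The remaining 4 falls were smaller. EPRS1, which joins the glutamyl and prolyl enzymes in 1 protein of the complex (chromosome 1, 219968600 to 220046505), went from 144, 136 and 137 CPM to 112, 117 and 101 CPM (1.26-fold lower, or -0.33 in log2 with SE 0.07; adjusted p = 0.0234). SARS1, the seryl enzyme (chromosome 1, 109213893 to 109238182), went from 163, 159 and 174 CPM to 138, 121 and 140 CPM (1.25-fold lower, adjusted p = 0.0362). In EPRS1 the third knockdown library was the lowest, whereas in SARS1 it was the second. YARS1, the tyrosyl enzyme (chromosome 1, 32775239 to 32817358), had 95.9, 100.2 and 92.1 CPM with shControl and 79.3, 72.1 and 82.3 CPM with shZNF469 (1.23-fold lower, adjusted p = 0.0335). CARS1, the cysteinyl enzyme (chromosome 11, 3000929 to 3057423), had 65.6, 67.2 and 70.5 CPM against 59.3, 52.8 and 56.1 CPM (1.21-fold lower, adjusted p = 0.0348). No library of one group overlapped the other in any of the 4, but their calls held in only 7, 8, 5 and 4 of 13 alternatives for EPRS1, SARS1, YARS1 and CARS1. All 4 calls were lost without shControl replicate 1, 2 or 3 and without shZNF469 replicate 1. Without shZNF469 replicate 2, YARS1 and CARS1 lost theirs, and without shZNF469 replicate 3, SARS1 and CARS1 did. Over all 13 alternatives the adjusted p reached 0.117 for EPRS1, 0.125 for SARS1, 0.133 for YARS1 and 0.119 for CARS1.

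**Figure D3:**
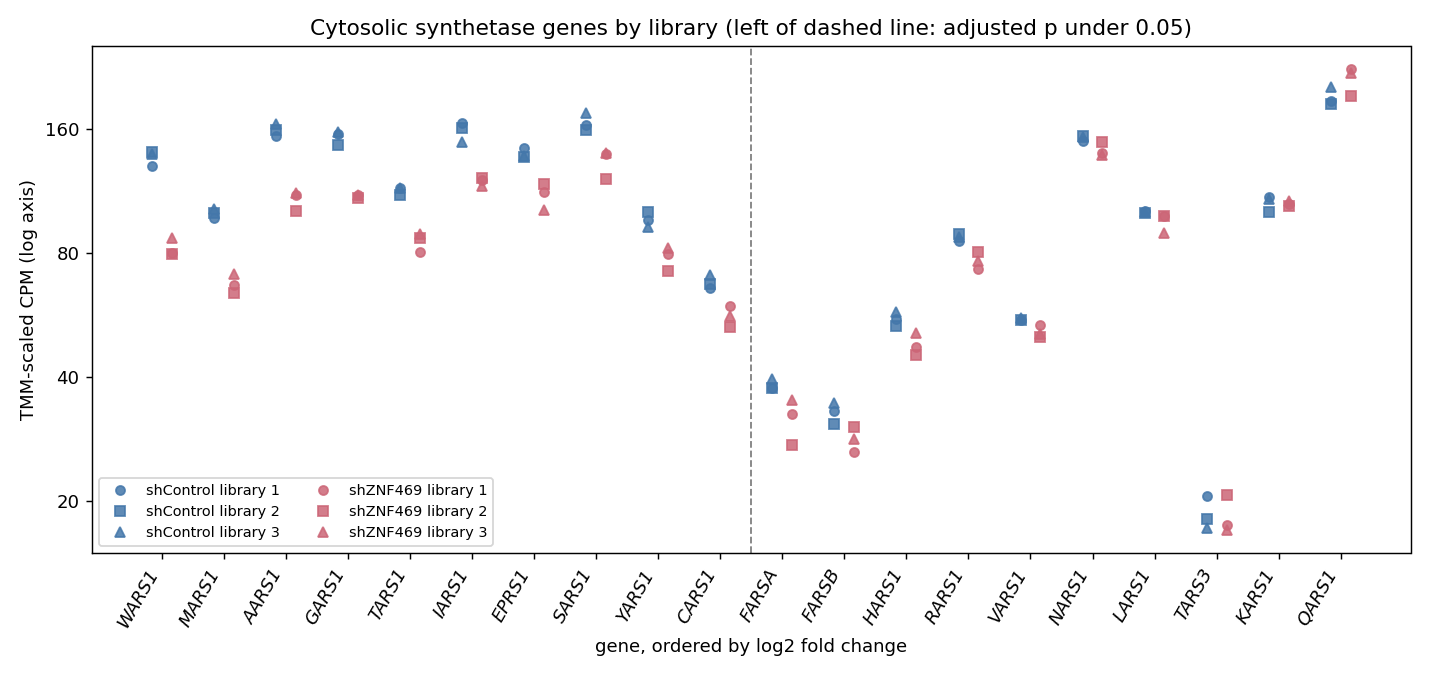
TMM-scaled CPM of 20 of the 21 cytosolic synthetase genes (log axis) in each of the 6 libraries, blue for shControl and red for shZNF469, ordered by log2 fold change. In the 10 genes left of the dashed line, which passed, no knockdown library reached the lowest control, whereas QARS1, at the right end, had knockdown libraries at and above the controls.

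The other 11 cytosolic genes did not pass, with log2 fold changes of -0.27 to 0.15. FARSA and FARSB, the catalytic and the other subunit of the phenylalanyl enzyme, had estimates of -0.27 (95% interval -0.49 to -0.05, adjusted p = 0.13) and -0.21 (-0.39 to -0.04, adjusted p = 0.127). HARS1, the histidyl enzyme, was at 55.3 ± 2.03 and 47.8 ± 2.97 CPM (adjusted p = 0.0804), and RARS1, the arginyl enzyme of the complex, at 87.3 ± 1.72 and 76.6 ± 3.77 CPM (SD, n = 3; adjusted p = 0.0823). These 4 lay below the controls in every knockdown library, and DESeq2 called them lower (adjusted p 0.00396 to 0.0382). For VARS1, NARS1 and LARS1, the valyl, asparaginyl and leucyl enzymes, the estimates were -0.10, -0.09 and -0.08 with intervals from -0.22 to 0.05 in all. The estimate of LARS1 was 0.12 on the authors' TPM, where its 3 control libraries ranged widely (39.8 ± 7.23 TPM). TARS3, a second cytosolic threonyl enzyme, was at -0.02, and KARS1, the lysyl enzyme of cytosol and mitochondria, at -0.01 with an interval of -0.14 to 0.12.

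QARS1, the glutaminyl enzyme of the complex, was the only cytosolic gene with an estimate above 0. It had 187, 183 and 201 CPM with shControl and 223, 192 and 219 CPM with shZNF469 (a log2 fold change of 0.15, 95% interval -0.02 to 0.32, adjusted p = 0.264). The groups overlap, and the interval excludes a fall of the size seen in the 10 lower genes, whose estimates ran from -0.74 to -0.27. Counting libraries, 17 of 21 cytosolic genes had all knockdown libraries below all controls, and 0 had them above, where 15.7% and 15.6% of all genes tested did so (31.4% in either direction).

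The first split was by known response to ATF4, and its match to the calls may not be independent of these data. Of the 13 cytosolic genes usually counted among ATF4-responsive ones, a list taken from general knowledge with earlier results known, 10 were lower (median log2 fold change -0.33), and VARS1, NARS1 and LARS1 were not called. Of the 8 other cytosolic genes, among them FARSA, HARS1, KARS1 and QARS1, 0 were called in either direction (median -0.15), and DESeq2 called 4 lower. Of these 8, 4 had an unadjusted p under 0.05, beside 4001 of the 16353 genes tested. By structure, 5 of 9 class I enzyme genes and 4 of 11 class II enzyme genes were lower, besides EPRS1, which holds a domain of each class. By assembly, 3 of 8 genes of enzymes in the multi-synthetase complex and 7 of 13 genes of enzymes outside it were lower. None of these splits was tested.

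Set beside the promoter sequences printed above, the TGATGNAA core was present in 6 of the 9 lower cytosolic genes with an entry and in 1 of the 7 others with one. The 6 were AARS1, CARS1, GARS1, IARS1, MARS1 and TARS1. WARS1, EPRS1 and SARS1 were lower without it in this window. NARS1 has the core in its TGATGCAA form and was at 152 ± 2.33 and 142 ± 5.22 CPM (adjusted p = 0.313). YARS2, the mitochondrial gene with a match, was at 15.4 ± 1.63 and 13.7 ± 0.443 CPM (adjusted p = 0.357).

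Among the scaffold genes, AIMP2 was lower. It had 11.6, 12.6 and 11.5 CPM with shControl and 8.05, 7.30 and 9.65 CPM with shZNF469 (1.43-fold lower, or -0.52 in log2 with SE 0.12; adjusted p = 0.0383). The groups do not overlap, but the call was lost in 6 of 13 alternatives (adjusted p up to 0.132), among them the fits without shControl replicate 1, 2 or 3 and without shZNF469 replicate 1 or 2. In addition, 28.9% of its exon bases are shared with EIF2AK1 on the opposite strand. EEF1E1 was at 12.4 ± 0.992 and 9.60 ± 0.448 CPM (a log2 fold change of -0.37) and just missed the threshold (adjusted p = 0.0508), passing with DESeq2 (adjusted p = 0.00269), on TPM and with total counts only. Of the exon bases of EEF1E1, 18.7% are shared with EEF1E1-BLOC1S5 on the same strand. AIMP1, the scaffold protein that is also released as a cytokine, was at 48.9 ± 1.45 and 51.2 ± 4.67 CPM (a log2 fold change of 0.07, 95% interval -0.11 to 0.24). The 3 scaffold genes thus gave 2 estimates below 0 and 1 above.

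The mitochondrial genes spread evenly around 0, with 8 of 17 estimates below it. The lowest were FARS2 (-0.23), MARS2 (-0.19), EARS2 (-0.17) and YARS2 (-0.16), each with overlapping groups. The highest was WARS2, the mitochondrial tryptophanyl enzyme, with 8.56, 12.1 and 11.4 CPM with shControl and 13.5, 12.6 and 15.7 CPM with shZNF469 (a log2 fold change of 0.38, 95% interval 0.03 to 0.73, adjusted p = 0.17). IARS2, the isoleucyl enzyme, had 133, 125 and 128 CPM against 142, 143 and 139 CPM (a log2 fold change of 0.13, adjusted p = 0.148). In WARS2 and IARS2, 2 of the 17, all knockdown libraries lay above all controls, as in 15.6% of all genes tested. DESeq2 called both higher (adjusted p = 0.0427 and 0.0122), among 1638 genes that it called higher in all. VARS2 had an estimate of 0.26 that came mostly from the first knockdown library, at 19.1 CPM beside 13.96 and 13.1 CPM. Exon bases of VARS2 are shared with GTF2H4 (22.0%) and those of SARS2 with AC011455.2 (46.2%), each on the same strand. A further 6 genes, RARS2, TARS2, SARS2, NARS2, LARS2 and CARS2, had estimates between -0.04 and 0.03, and PARS2, AARS2 and HARS2 were at -0.12, 0.06 and 0.12 with overlapping groups. Precision was lower in this set: the median half-width of the 95% interval was 0.22 on the log2 scale, beside 0.14 in the cytosolic set, and MARS2, at 1.82 ± 0.669 CPM in the controls, had an interval of -1.06 to 0.67.

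Each mitochondrial gene was then set against the cytosolic gene for the same amino acid, as a ratio of counts within a library. The counts are not scaled for length, so that a ratio shows the change between groups and not which gene is the more abundant. Of 17 such pairs (FARSA standing for the phenylalanyl enzyme, TARS1 for the threonyl one and EPRS1 for both glutamate and proline), the cytosolic estimate was the lower one in 17, with a median difference of -0.30. That count depends on the genes chosen: the unused FARSB (-0.21) lies above FARS2 (-0.23), and the unused TARS3 (-0.02) above TARS2 (-0.03). The ratio of WARS1 to WARS2 was 15.2, 11.6 and 12.1 with shControl and 5.89, 6.28 and 5.53 with shZNF469. The groups lie apart, with the first control library the highest. IARS1 stood at 1.24, 1.28 and 1.16 times IARS2 with shControl and at 0.842, 0.852 and 0.835 times with shZNF469. On TPM, IARS1 was at 82.2 ± 8.05 and IARS2 at 85.1 ± 5.43 with shControl, within their spread, and at 61.1 ± 6.28 and 92.3 ± 6.78 with shZNF469 (SD, n = 3). AARS1 went from 11.5, 13.1 and 11.6 times AARS2 to 7.87, 6.47 and 9.53 times. In all, the ratio was lower in every knockdown library than in every control for 9 pairs, higher for 0, and overlapping for 8. No such share was computed over other pairs of genes. Among single genes tested, 15.7% had all knockdown libraries below all controls and 15.6% above. The pairs hold the same cytosolic genes as the counts above, so the 9 are not a separate result. With 3 libraries against 3, an exact permutation test (two-sided) cannot give a p below 0.1, and no pair can pass alone.

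**Figure D4:**
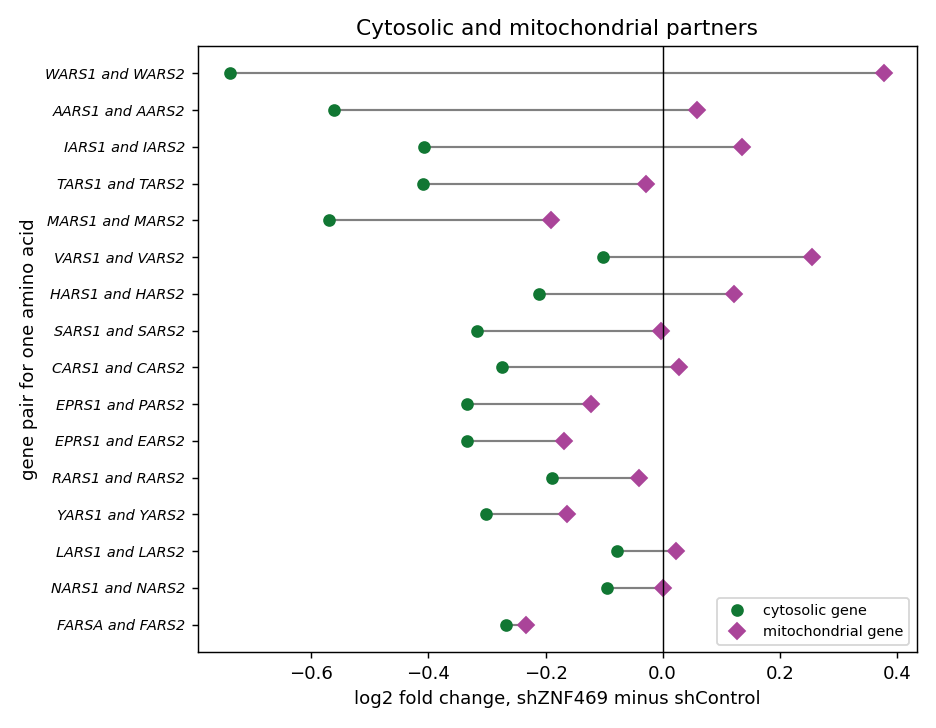
Log2 fold changes of the cytosolic gene (circle) and the mitochondrial gene (diamond) for the same amino acid, joined by a line, ordered by their difference. In the 16 pairs drawn, with FARSA and TARS1 as the cytosolic genes chosen, the circle lies left of the diamond, from a difference of -1.12 for WARS1 and WARS2 to -0.03 for FARSA and FARS2.

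Levels between genes were compared on the authors' TPM. In the controls the cytosolic genes had a median of 84.4 TPM and the mitochondrial ones of 12.2 TPM. SARS1 was the most abundant cytosolic gene (207 ± 3.33 TPM, SD, n = 3), followed by QARS1 (183 ± 2.50 TPM). NARS1 (129 ± 5.87 TPM), WARS1 (124 ± 9.22 TPM) and KARS1 (121 ± 9.64 TPM) came next and did not differ beyond their spread. In the knockdown QARS1 was first (201 ± 10.04 TPM) and SARS1 second (163 ± 6.19 TPM), and WARS1 went from 4th to 9th of 21 (72.2 ± 1.36 TPM). At the low end stood TARS3 (12.7 ± 1.65 TPM) and FARSB (11.3 ± 0.441 TPM), well under its partner subunit gene FARSA (49.1 ± 0.722 TPM). In CPM, without length scaling, FARSB was at 32.8 ± 1.90 and FARSA at 38.2 ± 1.11 in the controls. Their distance on TPM thus rests largely on the lengths used. Among mitochondrial genes, CARS2 (92.6 ± 4.1 TPM), RARS2 (90.5 ± 4.62 TPM) and IARS2 (85.1 ± 5.43 TPM) led without differing beyond their spread, and MARS2 was lowest (1.37 ± 0.454 TPM).

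Genes around the synthetases were counted in lists, to be read beside the 5.34% lower and 4.56% higher of all genes tested. Those shares hold for edgeR only. DESeq2 called 1642 genes lower and 1638 higher in all, where edgeR called 874 and 745. Of 34 genes of the integrated stress response and ATF4 targets, 20 were lower and 1 higher, their median log2 fold change being -0.47. The list holds no synthetase gene. The higher gene, named after its value was seen, was STC2, which encodes a secreted glycoprotein (0.63). The lowest p were those of PSAT1 and PHGDH, of serine synthesis (log2 fold changes of -2.46 and -1.45), and of SLC7A5, a transporter of large neutral amino acids (-1.43). ATF4 itself, named here after its value was seen, was at 281, 293 and 311 CPM with shControl and 224, 210 and 244 CPM with shZNF469 (1.30-fold lower, or -0.38 in log2 with SE 0.07; adjusted p = 0.0162). The groups do not overlap, and 15.7% of all genes tested likewise had all knockdown libraries below all controls. Any part of ATF4 in the fall of the synthetase genes was not tested. Among 18 genes of the eIF2 kinases and eIF2 control, which act above ATF4, 0 were lower and 1 higher (OMA1, a mitochondrial protease; log2 fold change 0.39). That call was lost when any single library was left out. Of the 18, 4 had an unadjusted p under 0.05, beside 4001 of the 16353 genes tested. DESeq2 called 3 lower and 2 higher in this list, and 1 was lower without shZNF469 replicate 2.

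Of 44 tested genes that process, modify or export transfer RNA, 3 were lower and 0 higher, beside 5.34% and 4.56% of all genes, their median log2 fold change being -0.10. The lower genes were XPOT, the exporter of transfer RNA from the nucleus (170 ± 3.31 and 122 ± 8.59 CPM, SD, n = 3; log2 fold change -0.49, adjusted p = 0.00482), TSEN15, of the splicing endonuclease (-0.48, adjusted p = 0.0191), and POP1, of RNase P (-0.37, adjusted p = 0.043). The count was 1 without shControl replicate 1, 2 or 3, and 2, 4 and 2 without shZNF469 replicate 1, 2 and 3. DESeq2, with 1642 genes lower and 1638 higher in all, called 6 lower and 2 higher. Of 27 cytosolic initiation factor genes, 6 were lower and 3 higher (median -0.03), led by EIF3J (-0.67), EIF4G2 (-0.29) and EIF1AX (-0.31). The higher ones, named after their values were seen, were EIF4A2 (0.25), EIF3E (0.22) and EIF4B (0.17). In this list 1, 3 and 2 were lower and 0 higher without shControl replicate 1, 2 and 3. Without shZNF469 replicate 1, 2 and 3, 2, 4 and 4 were lower and 1, 2 and 0 higher, and with DESeq2 9 were lower and 5 higher. Of 11 elongation and termination factor genes, 0 passed in edgeR, and DESeq2 called 1 higher and 1 lower. Among these 11, 4 had an unadjusted p under 0.05, beside 4001 of the 16353 genes tested. Of 15 mitochondrial translation factor genes, 1 was lower (MTRF1L, a release factor; -0.40), a call that remained only without shZNF469 replicate 2 among the fits with 1 library left out, and DESeq2 called 2 lower and 2 higher.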

How the data were processed

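RNA of 3 shControl and 3 shZNF469 libraries was sequenced after NEBNext Ultra library preparation, per the labels' protocols. The submitters' processing notes name HISAT2, StringTie and GRCh38.p14, with no versions or strand settings. The deposited table holds the authors' read counts per gene and their TPM (length-scaled transcript abundance) for 21151 genes, 4195 of them without a symbol. Total counts were 35417366 to 48298264 per library, which limits precision for genes of low level.

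The counts were fitted here with edgeR 4.0.16 (R 4.3.3): filterByExpr with a count minimum of 10, TMM scaling, the quasi-likelihood F test and Benjamini-Hochberg adjustment over 16353 genes, called at an adjusted p under 0.05. Standard errors are the size of the log2 fold change divided by the root of F. DESeq2 1.42.0 on counts and limma 3.58.1 on log2(TPM + 1) or log2(TPM + 0.1) were alternatives, besides other scalings, no filter, a replicate block and leaving out each library. Deviations of same-numbered libraries had correlations of -0.02, 0.08 and 0.03, beside -0.10 to 0.06 for other pairs. No pairing by number was visible, which does not exclude one, and the main fit had no block. On simulated counts, false calls ran somewhat above the nominal rate, so calls near the threshold are less certain.

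The members and gene lists were chosen with earlier results of these data known. Counts, sums and medians cover all members, 2 of which are not reported here by name or drawn. Members that passed have values per library, and of each gene list at most the 3 tested genes with the lowest p are named, besides ZNF469, COL1A1 and genes said to be chosen after their values were seen. Promoter windows are from RefSeq (GRCh38.p14) and exon overlaps from GENCODE release 29. Other members also share exon bases with neighbouring genes, and not every overlap is given.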

Additional observations from a re-analysis of the deposited data

How the results depend on the processing

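The 10 lower cytosolic genes became 14 with DESeq2, 7 and 6 with limma on log2 TPM (pseudocounts 1 and 0.1), and 5 to 9 with 1 library left out, the lowest without shControl replicate 1. The 0 higher cytosolic and 0 lower mitochondrial genes stayed at 0 in all 13 alternatives, and 0 higher mitochondrial genes became 2 with DESeq2. The 1 lower scaffold gene became 2 with total counts, DESeq2 and both TPM fits, and 0 to 1 with 1 library left out. Over all genes, 874 lower and 745 higher became 1642 and 1638 with DESeq2, 526 and 233 on TPM with pseudocount 1, 462 and 191 with pseudocount 0.1, and 333 to 854 lower and 204 to 769 higher with 1 library left out. The cause was not tested.

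With the replicate number as a block, 8 cytosolic genes were lower (CARS1 and YARS1 lost their calls), 0 scaffold genes were lower, and 736 genes were lower and 592 higher in all.

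The median log2 fold change stayed between -0.29 and -0.23 for cytosolic genes and between -0.04 and 0.02 for mitochondrial ones. Reversals were seen only in genes that were not called. With pseudocounts 1 and 0.1 on TPM, LARS1 was at 0.12 and 0.12, LARS2 at -0.11 and -0.12, NARS2 at -0.14 and -0.14, and SARS2 at 0.048 and 0.052. SARS2 was at 0.000149 with RLE size factors and 0.0037 with total counts. With 1 library left out, AARS2 ranged from -0.035 to 0.16, CARS2 from -0.031 to 0.078, KARS1 from -0.042 to 0.022, LARS2 from -0.0085 to 0.082, MARS2 from -0.48 to 0.11, NARS2 from -0.043 to 0.046, PARS2 from -0.31 to 0.0014, SARS2 from -0.064 to 0.082, TARS2 from -0.060 to 0.019 and TARS3 from -0.11 to 0.065.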

Other observations

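Ribosomal protein genes, the other large gene group of translation, were counted in the same fit. Of 79 cytosolic ribosomal protein genes, 0 passed with edgeR or DESeq2 (median log2 fold change 0.01). An unadjusted p under 0.05 in edgeR was seen in 0 of them, beside 4001 of the 16353 genes tested. Of 77 mitochondrial ones, 2 were lower and 2 higher (median -0.07), beside 5.34% lower and 4.56% higher of all genes tested. In each direction the share was thus below that over all genes. The lower ones were MRPL47 (-0.40, adjusted p = 0.0126) and MRPL3 (-0.22, adjusted p = 0.0318). The higher ones were MRPS30 (0.30, adjusted p = 0.0328) and, named after its value was seen, MRPS27 (0.21, adjusted p = 0.0438). Without shControl replicate 1 or 3 or shZNF469 replicate 1, 0 were lower and 0 higher, and without shControl replicate 2, 1 was lower and 0 higher. Without shZNF469 replicate 2, 3 were lower and 3 higher, and without shZNF469 replicate 3, 2 were lower and 0 higher. DESeq2, with 1642 genes lower and 1638 higher in all, called 5 lower and 3 higher.

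Other motifs were searched for in the same promoter windows on both strands. The cyclic AMP element TGACGTCA was found in AIMP2 alone among the members with an entry. Of all genes with an entry, 2.25% hold it (1.85% of windows). The E-box CACGTG was found in IARS1, CARS2, EARS2, MARS2 and AIMP2, 5 of the 33 members with an entry. It is held by 8.77% of all genes with an entry (7.26% of windows).

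COL1A1, the collagen gene with a large share of the counts, had 20803 ± 873 CPM with shControl and 6170 ± 317 CPM with shZNF469 (SD, n = 3).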
